A study of Mus musculus with 2 samples.

Results

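The V segments of the T cell receptor alpha and beta chains are the 163 genes of the count table whose symbols start with Trav or Trbv, of 32285 genes in all. They comprise 35 beta segments and 128 alpha segments, joint alpha-delta names such as Trav16d-dv11 included. The other gamma and delta genes were left out. The measurements came from 2 single-cell RNA libraries of live CD8+ T cells that were sorted by flow cytometry from tumours of MC38, a mouse colon carcinoma line, in wild-type mice on day 9 after implantation. For the control, the treatment is labelled PBS while the library name holds the abbreviation Iso, and the labels do not say which injection those mice had. The NK-depleted library came from mice given a-NK1.1 antibody, which removes natural killer (NK) cells. Each group is 1 library, and the number of mice behind each, and whether their tumours were pooled, is not stated in the labels used here. No difference below could be set against a spread between animals, so no test was run, and every interval is an exact 95% interval of counting error only.

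A T cell receptor is built in the thymus by joining V, D and J segments for the beta chain and V and J segments for the alpha chain, and each joined gene is then spliced to a constant gene, Trbc1 or Trbc2 for beta and Trac for alpha. A mature T cell usually keeps a single productive beta chain and passes both chains to all of its descendants, while many T cells carry a pair of rearranged alpha chains. The V segment encodes the CDR1 and CDR2 loops and the start of the CDR3 loop, the parts of the receptor that touch the peptide and its MHC molecule. Expansion of a few clones in a tumour therefore shows in the use of their V segments, although cells that share a V segment need not share a receptor.

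Usage was read from the leading segment of a cell, the Trbv or Trav gene with the most unique molecular identifiers (UMIs) in it, and cells with a tie were left uncalled. Cells entered with at least 500 genes, a mitochondrial share under 10%, and at least 1 UMI each of CD3 (Cd3d, Cd3e or Cd3g) and of CD8 (Cd8a or Cd8b1). The gate held 6901 control cells with a median of 11444 UMIs and 8164 NK-depleted cells with a median of 12289.5 UMIs. These were 96.3% and 97.7% of the cells that passed the quality filters, so the labelled cell type had its defining markers. Of 391 barcodes present in both libraries, 26 were gated in both; none of them had a beta segment called in both, and 2 had an alpha segment called in both, which differed. Markers of other cells were counted in the gated cells: the 3 neutrophil markers summed to 3.51 CPM (control) and 0.97 CPM (NK-depleted), the 7 macrophage and monocyte markers to 32.4 and 23.8 CPM, and the 8 gamma delta T cell markers in the table to 31.3 and 53.1 CPM, where CPM is the UMIs of a gene scaled to 1000000 UMIs of the gated cells. The 7 NK cell markers, among them Klrk1, which CD8+ T cells also express, summed to 758 and 844 CPM. The 9 dendritic cell markers summed to 1273 and 903 CPM, of which Bst2, which other cells also express, gave 726 and 496 CPM. The 6 B cell markers came to 63.4 and 44.8 CPM, mostly from Ighm at 55.7 and 39.4 CPM, and the 4 CD4 T cell markers to 23.2 and 25.7 CPM. The usage results without cells that held Trdc, Cd4 or 3 markers of non-T cells are given in the closing section.

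The segments on which the comparisons turned are shown by the last 60 bases of the V exon, where the conserved cysteine codon (in capitals) opens the CDR3 loop. They come from the plus strand of GRCm38 as annotated by GENCODE M21. Ratios of use here are among segments that led at least 50 cells in 1 library. The first 5 beta segments (Trbv1 at chr6:40891826-40891885, Trbv2 at chr6:41047936-41047995, Trbv13-2 at chr6:41121773-41121832, Trbv14 at chr6:41135557-41135616 and Trbv20 at chr6:41188918-41188977) had the largest use in the NK-depleted library relative to the control among beta segments at that minimum. Trbv12-1 (chr6:41114008-41114067), Trbv13-1 (chr6:41116409-41116468) and Trbv29 (chr6:41271822-41271881) had the smallest at that minimum. Trbv16 (chr6:41152171-41152230) took part in the leading pair, Trbv26 (chr6:41227934-41227993) had the largest share of Havcr2-positive cells among segments that led at least 100 cells, and the alpha segment Trav8-2 (chr14:53738779-53738838) had the largest ratio between libraries at the 50-cell minimum.
Trbv1: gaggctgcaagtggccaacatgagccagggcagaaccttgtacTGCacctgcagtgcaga
Trbv2: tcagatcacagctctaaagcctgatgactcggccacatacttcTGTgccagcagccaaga
Trbv13-2: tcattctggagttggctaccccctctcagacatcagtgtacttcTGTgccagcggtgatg
Trbv14: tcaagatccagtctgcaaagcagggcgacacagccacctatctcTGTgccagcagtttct
Trbv20: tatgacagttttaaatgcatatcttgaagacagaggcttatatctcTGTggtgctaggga
Trbv12-1: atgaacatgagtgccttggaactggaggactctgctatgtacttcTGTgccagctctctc
Trbv13-1: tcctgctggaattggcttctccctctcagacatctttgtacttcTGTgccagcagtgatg
Trbv29: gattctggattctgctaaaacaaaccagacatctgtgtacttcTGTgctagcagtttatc
Trbv16: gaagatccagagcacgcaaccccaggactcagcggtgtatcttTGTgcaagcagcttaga
Trbv26: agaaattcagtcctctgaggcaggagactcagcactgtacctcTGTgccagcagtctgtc
Trav8-2: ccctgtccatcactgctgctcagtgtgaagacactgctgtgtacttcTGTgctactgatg

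The beta V segments lie between positions 40891229 and 41558452 of chromosome 6, and the alpha V segments between positions 52427928 and 53977678 of chromosome 14. All 163 segments matched a gene of that annotation. It classes 22 beta segments as V genes and 13 as V pseudogenes, and 108 alpha segments as V genes and 20 as V pseudogenes. All 22 beta V genes were detected in at least 1 library, against 4 of the 13 pseudogenes, which together led 0.795% of called cells in the control and 0.616% in the NK-depleted library. Of the alpha segments, 73 of the 108 V genes and 8 of the 20 pseudogenes were detected.

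The alpha locus of the mouse holds a duplicated central block, whose copies carry a d or an n in their symbols, and this decides which alpha segments the counts can separate. By V exon sequence, 38 of the 128 alpha segments had an identical copy elsewhere in the locus, and these were nearly silent: 2 of them were detected, with 5 UMIs in all. A read that falls on such a segment cannot be assigned to 1 copy, so 0 UMIs there does not show that the segment was unused. A further 34 segments differed from their nearest copy by 1 to 5 bases, and 31 of them were detected, with 5204 UMIs. Another 43 differed by 6 to 20 bases, with 36 detected and 5019 UMIs, and 13 by more, with 12 detected and 750 UMIs. No beta segment lay within 20 bases of another, so a beta call names its segment more firmly than an alpha call does.

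**Figure D1:**
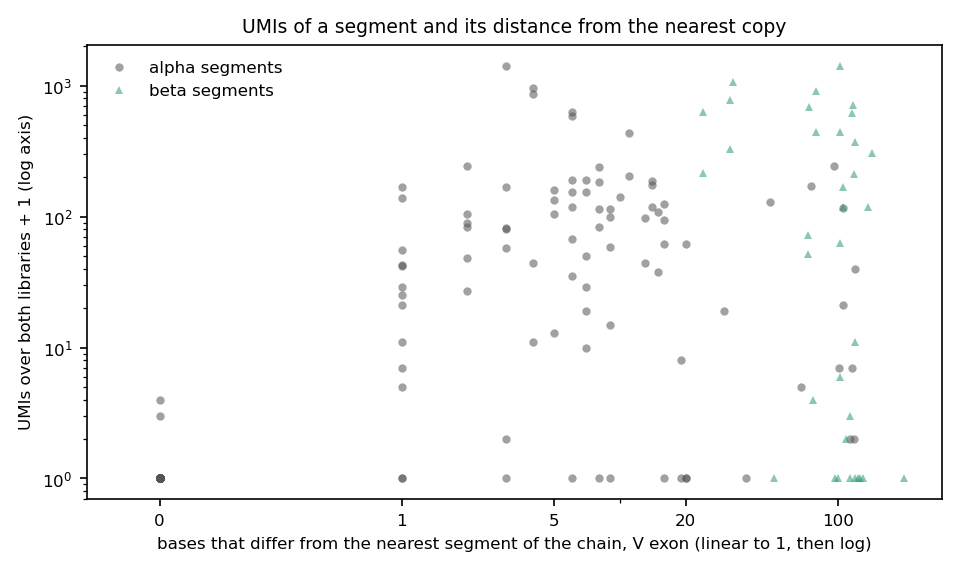
UMIs of each segment over both libraries plus 1 (log axis) against the number of V exon bases by which it differs from the nearest segment of its chain (linear to 1, then log). Each point is 1 of the 163 segments: the 38 alpha segments at 0 bases hold 5 UMIs between them, and every beta segment lies beyond 20 bases.

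The most used alpha segments belong to a set of such close copies. Trav16 (chr14:53743406-53743705), Trav16n (chr14:53351322-53351621) and Trav16d-dv11 (chr14:53047522-53047821) are shown by the last 300 bases of their V exons on the plus strand, with the 6 positions that vary among the 3 copies in capitals. Trav16 and Trav16n differ at 4 of the 300 positions, Trav16 and Trav16d-dv11 at 5, and Trav16d-dv11 and Trav16n at 3.
Trav16: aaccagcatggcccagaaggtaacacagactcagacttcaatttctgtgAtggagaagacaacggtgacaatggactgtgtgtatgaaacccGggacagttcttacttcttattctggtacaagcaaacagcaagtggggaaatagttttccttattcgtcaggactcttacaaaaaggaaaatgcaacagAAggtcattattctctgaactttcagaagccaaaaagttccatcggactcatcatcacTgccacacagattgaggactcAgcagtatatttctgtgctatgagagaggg
Trav16n: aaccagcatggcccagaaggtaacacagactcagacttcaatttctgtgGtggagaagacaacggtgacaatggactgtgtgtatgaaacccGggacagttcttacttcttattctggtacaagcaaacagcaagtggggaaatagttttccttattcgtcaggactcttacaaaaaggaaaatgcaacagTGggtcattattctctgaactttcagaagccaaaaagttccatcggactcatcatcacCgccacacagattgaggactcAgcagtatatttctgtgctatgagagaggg
Trav16d-dv11: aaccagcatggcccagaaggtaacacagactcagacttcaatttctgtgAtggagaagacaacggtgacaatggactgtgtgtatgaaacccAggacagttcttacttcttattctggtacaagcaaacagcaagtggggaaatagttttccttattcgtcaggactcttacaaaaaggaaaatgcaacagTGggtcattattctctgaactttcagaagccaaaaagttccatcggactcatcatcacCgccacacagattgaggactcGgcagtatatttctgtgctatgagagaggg

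The copies were seldom found in the same cell, although a cell with 1 alpha UMI can show only 1 of them. Trav16 had UMIs in 189 control cells and Trav16n in 274, and 2 cells held both. In the NK-depleted library Trav16 had UMIs in 228 cells and Trav16n in 429, and 5 cells held both. Trav16d-dv11 shared 0 control cells with Trav16 and 1 with Trav16n, and shared 1 and 5 NK-depleted cells with them. Whether reads of 1 copy were assigned to another was not tested.

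V segments were captured sparsely. Beta segments summed to 5009 control and 4730 NK-depleted UMIs, 47.0 and 37.7 CPM, and alpha segments to 4853 and 6125 UMIs, 45.6 and 48.9 CPM. The constant genes to which they are spliced gave far more: 105159 and 85159 UMIs of Trbc1, 174749 and 177965 of Trbc2, and 89005 and 88216 of Trac. Per 100 UMIs of the beta constant genes there were 1.79 beta V UMIs in the control and 1.80 in the NK-depleted library, and per 100 UMIs of Trac 5.45 and 6.94 alpha V UMIs. The beta ratio was alike in the libraries, and the alpha ratio was higher in the NK-depleted one.

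A beta UMI was found in 42.8% of control cells (41.7 to 44.0) and 37.2% of NK-depleted cells (36.1 to 38.2), and an alpha UMI in 36.3% (35.2 to 37.5) and 37.2% (36.1 to 38.2). After thinning every cell to 5400 UMIs, which removed 624 cells of the control and 756 of the NK-depleted library, the beta shares were 22.0% and 18.3% and the alpha shares 20.2% and 20.5%. Among non-T cells of the same libraries, chosen for myeloid, B cell and dendritic cell markers without CD3, 1 of 109 control and 1 of 66 NK-depleted cells had a beta UMI and 3 of each an alpha UMI, at the much lower median depths of 965 and 895 UMIs. The share of cells with a beta UMI was thus lower in the NK-depleted library at full depth and when thinned, while the alpha shares lay within each other's intervals.

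A leading beta segment was called in 2641 control and 2760 NK-depleted cells, and ties left 316 and 275 uncalled. Of the beta calls, 67.6% and 71.4% rested on 1 UMI, as did 62.4% and 60.4% of the alpha calls, which numbered 2257 and 2715. Called cells were deeper than the rest: the median depth was 14296 UMIs in control cells with a called beta segment and 10188 in those without, and 15015.5 and 11005 in the NK-depleted library. Usage therefore describes the deeper cells of each library. Segments also differed in how many UMIs they gave per cell. The mean number of UMIs of the leading segment was largest for Trbv2 among the 18 beta segments that led at least 20 cells in each library, 2.58 in the control and 2.27 in the NK-depleted library, and smallest for Trbv4, 1.23 and 1.11. Transcript length bore little relation to it, with a Spearman rho of 0.11 and 0.04 across these 18 segments and -0.06 and -0.14 across 31 alpha segments with the same minimum, points that share their library and depth.

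As levels summed over the gated cells, no V segment reached 10 CPM: the highest were Trav16n at 7.09 CPM and Trbv2 at 6.51 CPM, both in the NK-depleted library. Members were therefore compared at a minimum of 100 UMIs in 1 library, a minimum chosen after these levels were seen. Of 15 beta segments at that minimum, NK depletion went with a level at least 1.5-fold higher for 1 and at least 1.5-fold lower for 5, and their median log2 ratio was -0.45. Of 16 alpha segments, 5 were higher and 2 lower (median log2 ratio 0.38). Over all 11560 genes at the same minimum, 2.78% were 1.5-fold or more higher and 5.67% lower (median log2 ratio -0.06). Among the 3289 genes between that minimum and the count of the highest V segment, which carry like counting error, the shares were 6.57% and 12.4%. At the 10 CPM minimum, which no V segment passed, 1.09% of genes were higher and 3.02% lower.

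At the 100 UMI minimum, the largest level difference was that of Trav8-2, with 26 control UMIs (0.244 CPM) and 160 NK-depleted UMIs (1.28 CPM), a ratio of 5.23 (3.44 to 8.25). Among beta segments the 1 past the threshold upward was Trbv1, with 105 and 201 UMIs and a ratio of 1.63 (1.28 to 2.08). The lowest beta ratio was that of Trbv29, with 297 and 142 UMIs and a ratio of 0.406 (0.330 to 0.498), followed by Trbv12-1, with 215 and 113 UMIs and a ratio of 0.446 (0.352 to 0.563). The lowest alpha ratio was that of Trav13d-1, with 113 and 56 UMIs and a ratio of 0.421 (0.300 to 0.585).

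The genes that assemble the receptor and signal from it moved less. Of the 16 genes of that list, 13 had at least 100 UMIs; none was higher by 1.5-fold with NK depletion, 1 was lower, and the median log2 ratio was -0.22. Trac, the alpha constant gene, stood at 836 and 704 CPM, and Cd3e, a chain of the CD3 signalling complex, at 639 and 548 CPM. The gene that was lower was Dntt, which encodes terminal deoxynucleotidyl transferase, the enzyme that adds bases without a template at V(D)J junctions. Its 207 control UMIs came from 41 cells and its 30 NK-depleted UMIs from 13 cells. The recombinase genes gave almost nothing, with 1 UMI of Rag1 in the control and none elsewhere, and none of Rag2 in either library.

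Usage of the beta segments was broad and kept much the same order in both libraries. In all, 24 beta segments led at least 1 cell, and across them the shares of the libraries had a Spearman rho of 0.94. The effective number of segments (the inverse Simpson number, which counts segments as if all were equally used) was 13.6 in the control and 14 in the NK-depleted library, and the 3 most used segments covered 33.4% and 31% of called cells. Differences between the libraries lay in single segments.

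Trbv13-1 was the most used beta segment of the control library and Trbv2 that of the NK-depleted library. Trbv13-1 led 359 control cells, 13.6% of those called (12.3 to 15.0), and 248 NK-depleted cells, 8.99% (7.95 to 10.1), a ratio of 0.66 (0.56 to 0.78). Trbv2 led 210 control cells, 7.95% (6.95 to 9.05), and 338 NK-depleted cells, 12.2% (11.0 to 13.5), a ratio of 1.54 (1.29 to 1.84). The intervals of the libraries did not overlap for either. Because Trbv2 gave more UMIs per cell than any other beta segment, its share grew with the UMIs required of a call: at 2 or more UMIs it was 16% and 26%, and at 3 or more 30.9% and 46.4%. The ratio between libraries was then 1.63 (1.3 to 2.04) and 1.5 (1.13 to 2.0).

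Of the 16 beta segments that led at least 50 cells in 1 library, 5 had a ratio of 1.5 or more, 3 a ratio at or under the inverse of 1.5, and 8 lay between. Trbv1 had the largest ratio, with 55 control cells (2.08%) and 125 NK-depleted cells (4.53%), a ratio of 2.17 (1.57 to 3.04). Trbv13-2 led 123 cells (4.66%) and 219 cells (7.93%), a ratio of 1.70 (1.36 to 2.14). Trbv20 led 78 cells (2.95%) and 138 cells (5%), a ratio of 1.69 (1.27 to 2.26), and Trbv14 35 and 58 cells, a ratio of 1.59 (1.02 to 2.49). All 5 segments with higher use, Trbv2 included, had intervals above 1 in these calls, most of which rested on 1 UMI. At 2 or more UMIs the ratio was 2.80 (1.47 to 5.61) for Trbv1, 2.28 (1.33 to 4.03) for Trbv20 and 1.44 (0.88 to 2.37) for Trbv13-2. At 3 or more, the intervals of Trbv1, Trbv20 and Trbv13-2 held 1. As summed levels, the ratios were smaller, 1.16 for Trbv2, 1.26 for Trbv13-2, 1.38 for Trbv20 and 1.12 (0.82 to 1.54) for Trbv14. A level is a share of all UMIs, and beta segments together stood at 47.0 and 37.7 CPM. Use is a share of cells with a called beta segment, so the measures differ in their denominator.

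Lower use was found for Trbv12-1, Trbv29 and Trbv13-1. Trbv12-1 led 143 control cells (5.41%) and 78 NK-depleted cells (2.83%), a ratio of 0.52 (0.39 to 0.69). Trbv29 led 166 cells (6.29%) and 92 cells (3.33%), a ratio of 0.53 (0.41 to 0.69). Trbv19 came next, with 244 cells (9.24%) and 184 cells (6.67%) and a ratio of 0.72 (0.59 to 0.88). Trbv17 with 76 and 58 cells had a ratio of 0.73 (0.51 to 1.04). At 2 or more UMIs the ratio was 0.52 (0.24 to 1.08) for Trbv12-1 and 0.51 (0.30 to 0.85) for Trbv29. It was 0.61 (0.45 to 0.81) for Trbv13-1 and 0.75 (0.51 to 1.11) for Trbv19. At 3 or more, the intervals of Trbv12-1 and Trbv29 held 1, and those of Trbv13-1 and Trbv19 did not. Segments that lie side by side on the chromosome went different ways. Trbv12-1, Trbv13-1, Trbv12-2 and Trbv13-2 are consecutive in the locus, and their ratios in that order were 0.52, 0.66, 1.21 (0.99 to 1.47) and 1.70. Among the other frequent segments the shares were close, as for Trbv16 with 10.6% and 9.75% (ratio 0.92, 0.78 to 1.09), Trbv26 with 7.19% and 8.30% (1.15, 0.95 to 1.41) and Trbv3 with 7.08% and 6.34% (0.90, 0.72 to 1.11).

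**Figure D2:**
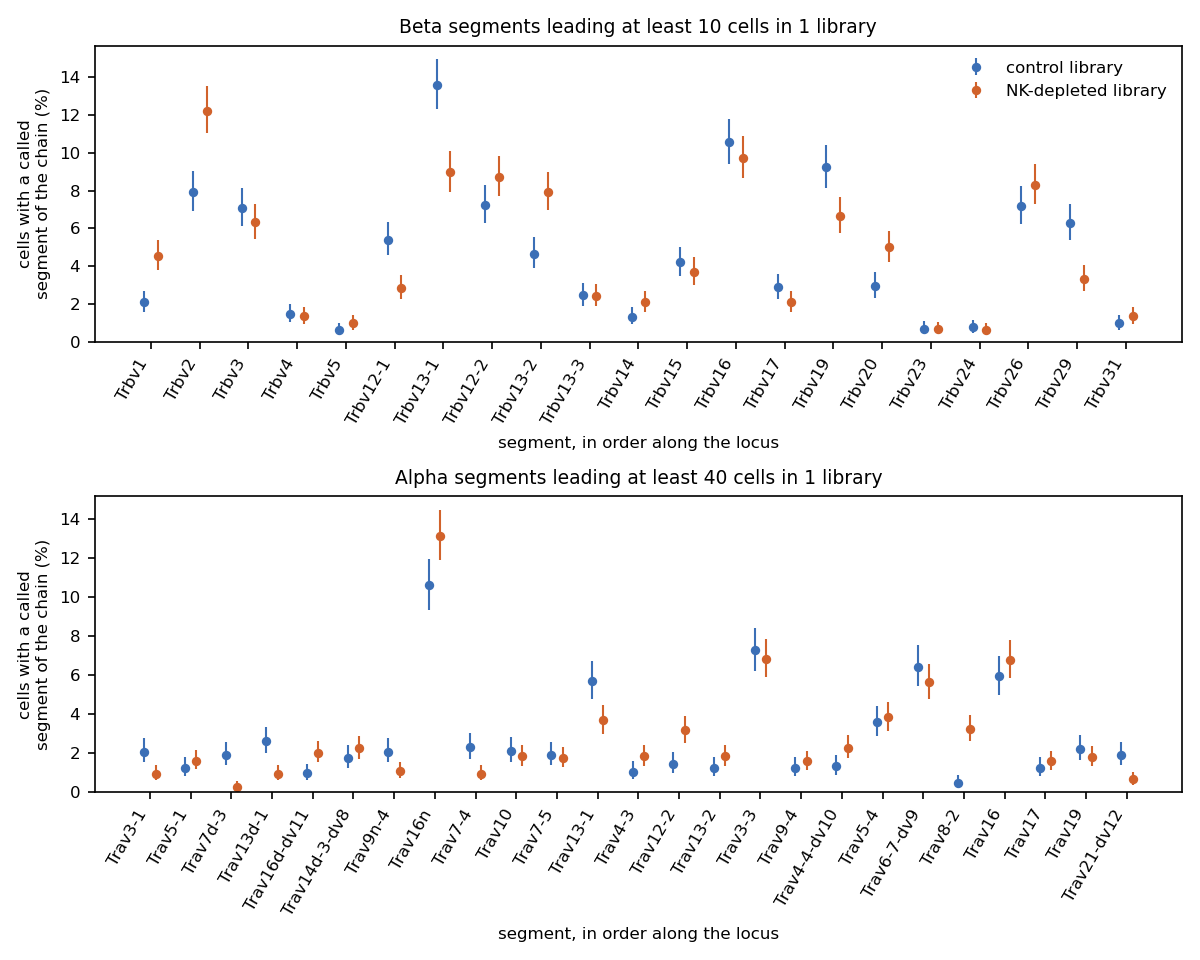
Share of cells with a called segment of the chain (%) led by the more frequent beta segments (top) and alpha segments (bottom), in order along the locus. Segments under a minimum number of led cells, which was higher for alpha than for beta, are not drawn. Points are the control (blue) and NK-depleted (orange) libraries and bars exact 95% intervals of counting error. Trbv13-1 led 13.6% of control and 8.99% of NK-depleted cells, Trbv2 7.95% and 12.2%, and Trav16n was the most used alpha segment of both.

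Alpha usage was spread over more segments. At least 1 cell was led by 77 alpha segments in each library and by 81 in either, and across these 81 the shares had a Spearman rho of 0.78. The effective number was 27.2 in the control and 24.5 in the NK-depleted library. Trav16n was the most used in both, with 239 control cells (10.6%, 9.35 to 11.9) and 356 NK-depleted cells (13.1%, 11.9 to 14.4), a ratio of 1.24 (1.05 to 1.46). Trav3-3 followed, with 164 and 185 cells and a ratio of 0.94 (0.76 to 1.16), then Trav16 with 134 and 184 cells and a ratio of 1.14 (0.91 to 1.44) and Trav6-7-dv9 with 145 and 153 cells and a ratio of 0.88 (0.69 to 1.11). The intervals of these 3 ratios held 1, and that of Trav16n did not.

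Of the 17 alpha segments that led at least 50 cells in 1 library, 5 had a ratio of 1.5 or more, 3 a ratio at or under the inverse of 1.5, and 9 lay between. Trav8-2, which GENCODE M21 classes as a pseudogene, had the largest ratio: it led 11 control cells (0.487%) and 88 NK-depleted cells (3.24%), a ratio of 6.65 (3.54 to 13.8). Its V exon differs from that of its nearest copy, Trav8n-2, by 14 bases, and the share of alpha-called cells led by any pseudogene was 0.975% in the control and 3.83% in the NK-depleted library. Trav12-2 led 33 and 86 cells, a ratio of 2.17 (1.43 to 3.34), and Trav16d-dv11 led 22 and 55 cells, a ratio of 2.08 (1.25 to 3.58). Trav4-3 and Trav4-4-dv10 had ratios of 1.73 (1.04 to 2.95) and 1.72 (1.09 to 2.75). Trav10 lay between the thresholds, with 48 and 50 cells and a ratio of 0.87 (0.57 to 1.31). As a summed level it went the other way, with 79 and 162 UMIs and a ratio of 1.74 (1.32 to 2.31). Trav19 and Trav14d-3-dv8 also lay between, with ratios of use of 0.81 (0.54 to 1.23) and 1.27 (0.84 to 1.94).

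The alpha segments with lower use in the NK-depleted library were Trav13d-1, Trav7-4 and Trav13-1. Trav13d-1 led 59 and 26 cells, a ratio of 0.37 (0.22 to 0.59), and Trav7-4 led 52 and 26 cells, a ratio of 0.42 (0.25 to 0.68). Trav13-1 led 128 and 100 cells, a ratio of 0.65 (0.49 to 0.85). Both Trav13 segments were lower, but the family of 12 as a whole, in which reads of close copies are joined, was not: it led 260 control cells (11.4%) and 274 NK-depleted cells (10.0%), a ratio of 0.88 (0.74 to 1.04). The Trav16 family was the most used, with 17.4% of control and 21.9% of NK-depleted cells, a ratio of 1.26 (1.11 to 1.44). By name class, the 55 segments without a d or n in their symbols led 68.6% of called cells in each library, the 39 d copies 12.5% and 10.4%, and the 34 n copies 18.9% and 21%.

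The 10 joint alpha-delta names belong to segments that can join to either the alpha or the delta chain. They led 322 control cells (14.3% of those called) and 405 NK-depleted cells (14.9%). A UMI of Trdc, the delta constant gene, was found in 2.17% of those control cells (0.878 to 4.43) and 3.21% of the NK-depleted ones (1.72 to 5.43). In cells led by an alpha-only name the shares were 0.982% (0.592 to 1.53) and 1.60% (1.13 to 2.20). The intervals overlapped in both libraries, and most cells led by a joint name had no Trdc UMI.

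Some cells showed more than 1 segment of a chain. Among cells whose leading beta segment had at least 3 UMIs, 77 of 288 control cells (26.7%, 21.7 to 32.2) and 34 of 248 NK-depleted cells (13.7%, 9.68 to 18.6) held another beta segment, and 19 and 7 held it with at least 2 UMIs. For alpha segments the numbers were 130 of 387 cells (33.6%, 28.9 to 38.5) and 183 of 514 cells (35.6%, 31.5 to 39.9). The beta share was lower in the NK-depleted library, and the alpha shares overlapped. Cells with another beta segment were deeper, with a median of 30581 UMIs in the control library against 18610 in cells without one, and 27656.5 against 17521.5 in the NK-depleted library. The part of doublets, free RNA or true double expression in these cells was not tested.

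Both chains were called in 938 control cells (13.6% of those gated) and 1027 NK-depleted cells (12.6%). These gave 420 and 437 different pairs, of which 242 and 253 occurred in 1 cell. The effective number of pairs was 168 in the control and 199 in the NK-depleted library, and the 10 most frequent pairs covered 16.3% and 14.7% of paired cells. The junction sequences that would tell clones apart were not analysed here, so a pair of segments is not a clone.

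The same pair led both libraries. Trbv16 with Trav16n was found in 50 control cells (5.33% of paired cells) and 42 NK-depleted cells (4.09%). The product of the usage of both segments among paired cells would give 14.1 and 15.2 cells, so the pair was 3.55 times (2.64 to 4.68) and 2.76 times (1.99 to 3.73) as frequent as that product. It held 50 of the 120 control cells with Trbv16 and an alpha call (41.7%) and 42 of the 115 in the NK-depleted library (36.5%). No other pair reached 20 cells.

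Some of the other frequent pairs were found in a single library, or nearly so. In the NK-depleted library Trbv13-2 with Trav8-2 was found in 19 cells, 5.71 times the product (3.44 to 8.91), and in 0 of 938 paired control cells, which by a limit of 3 counts allows a share of up to 0.320%. These 19 cells made up 50% of the 38 paired cells with Trav8-2 and 21.1% of the 90 with Trbv13-2. The control had only 4 paired cells with Trav8-2. In the control library Trbv17 with Trav5-4 was found in 11 cells, 8.49 times the product (4.24 to 15.2), and Trbv16 with Trav21-dv12 in 10, 3.91 times the product (1.87 to 7.19), and neither pair was found in the 1027 paired NK-depleted cells, which by the same limit allows a share of up to 0.292%. Paired NK-depleted cells numbered 26 with Trbv17, 19 with Trav5-4 and 7 with Trav21-dv12. Where a segment was this scarce, a count of 0 says little about its pairing. Trbv19 with Trav7-4 was found in 13 control cells, 6.13 times the product (3.27 to 10.5), and in 1 NK-depleted cell, of 10 paired cells with Trav7-4 there. Trbv17 with Trav16 was found in 1 control cell and 10 NK-depleted cells, where it was 4.76 times the product (2.28 to 8.75).

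A few pairs besides the leading one were found in both libraries, which for frequent segments can follow from their usage alone. Trbv15 with Trav3-3 was found in 10 control and 14 NK-depleted cells, 3.02 times (1.45 to 5.56) and 4.80 times the product (2.62 to 8.05). Trbv13-2 with Trav16n was found in 13 and 12 cells, 2.22 times the product in the control (1.18 to 3.79) and 1.01 times in the NK-depleted library (0.52 to 1.76). Trbv2 with Trav3-3 was found in 14 and 5 cells, Trbv3 with Trav16 in 11 and 4, and Trbv13-1 with Trav3-3 in 10 and 6. Trbv2 with Trav6-7-dv9 was found in 5 and 12 cells, Trbv13-1 with Trav16n in 8 and 11, and Trbv19 with Trav16n in 3 and 11. Trbv12-2 with Trav6-7-dv9 was found in 4 and 10 cells, and Trbv2 with Trav16 in 7 and 10. The pairs given by count alone are not set against their product, so their counts do not show pairing beyond the use of their segments. Trbv3 with Trav13-1 was found in 11 control cells and in none of the NK-depleted library. Of the pairs with at least 5 cells, 27 of 44 in the control and 27 of 54 in the NK-depleted library were at least 2 times as frequent as the product. The minimum was set on the same count that enters the ratio, which favours pairs above their product. These numbers therefore do not measure an excess of pairing.

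**Figure D3:**
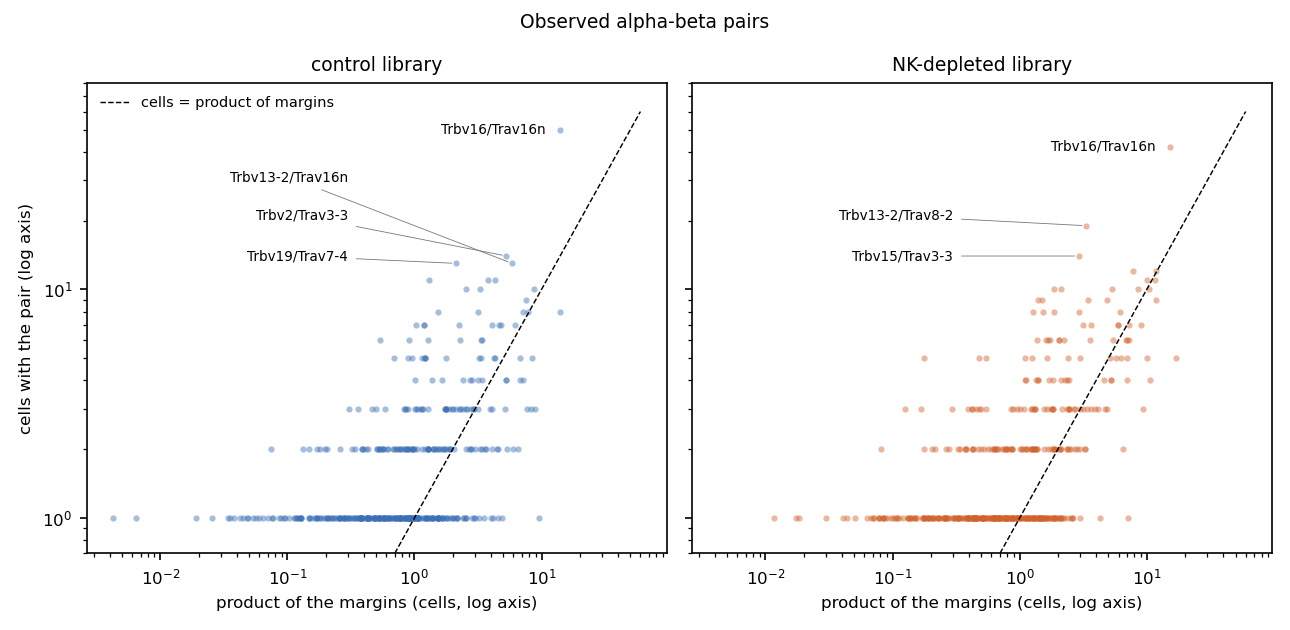
Number of cells with each observed alpha-beta pair against the product of the usage of both segments among paired cells (both axes log), in the control (left) and NK-depleted (right) libraries; each point is a pair and the dashed line marks equality. Trbv16 with Trav16n stands highest in both panels, at 50 and 42 cells against products of 14.1 and 15.2.

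The beta constant gene gave a readout of pairs that the segments did not use. A rearranged beta gene is spliced to Trbc1 or to Trbc2, so the cells of a clone share 1 of them, while cells with unrelated receptors are mixed; Trbc1 and Trbc2 are close copies, so reads may be split between them. Among cells with at least 10 UMIs of both together, Trbc1 had more UMIs than Trbc2 in 31.9% of control cells with a called beta segment (30.1 to 33.8) and 26.7% of NK-depleted ones (25 to 28.4). Of the cells with Trbv16 and Trav16n, 1 of 49 control cells and 0 of 41 NK-depleted cells had mostly Trbc1. Cells with Trbv16 and another alpha segment had mostly Trbc1 in 27.5% (17.5 to 39.6) and 22.5% (13.5 to 34.0), and those with Trav16n and another beta segment in 23.7% (13.6 to 36.6) and 18.5% (11.2 to 27.9). The leading pair thus had a more uniform constant gene than either of its segments in other pairs, with intervals up to 10.9% and 8.6%.

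Some other pairs were uniform in the few cells they had, and others were mixed. In the NK-depleted library 0 of 19 cells with Trbv13-2 and Trav8-2 had mostly Trbc1 (upper bound 17.6%), against 19.6% of all Trbv13-2 cells there. For Trbv17 with Trav16 it was 0 of 10 (upper bound 30.8%), against 24.1% of all Trbv17 cells there. Trbv15 with Trav3-3 had mostly Trbc1 in 0 of 10 control cells (upper bound 30.8%) and 0 of 13 NK-depleted cells (upper bound 24.7%). All Trbv15 cells were at 18.3% and 21.2%. The bounds of the Trbv17 and Trbv15 pairs thus held the shares of their beta segments. Trbv17 with Trav5-4 went the other way, with mostly Trbc1 in 11 of 11 control cells (lower bound 71.5%), against 63.0% of all Trbv17 cells there. Trbv19 with Trav7-4 was mixed, at 9 of 13 control cells, and Trbv2 with Trav3-3 at 4 of 14. Other mixed pairs of the control were Trbv16 with Trav21-dv12 and Trbv13-1 with Trav3-3, each at 6 of 10, and Trbv13-2 with Trav16n at 4 of 12. In the NK-depleted library Trbv19 with Trav16n was at 4 of 11. Whole segments also differed: Trbv26 cells had mostly Trbc1 in 63.1% of the control (55.7 to 70.0) and 44.4% of the NK-depleted library (37.6 to 51.3), against 24.7% and 14.7% of Trbv16 cells.

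**Figure D4:**
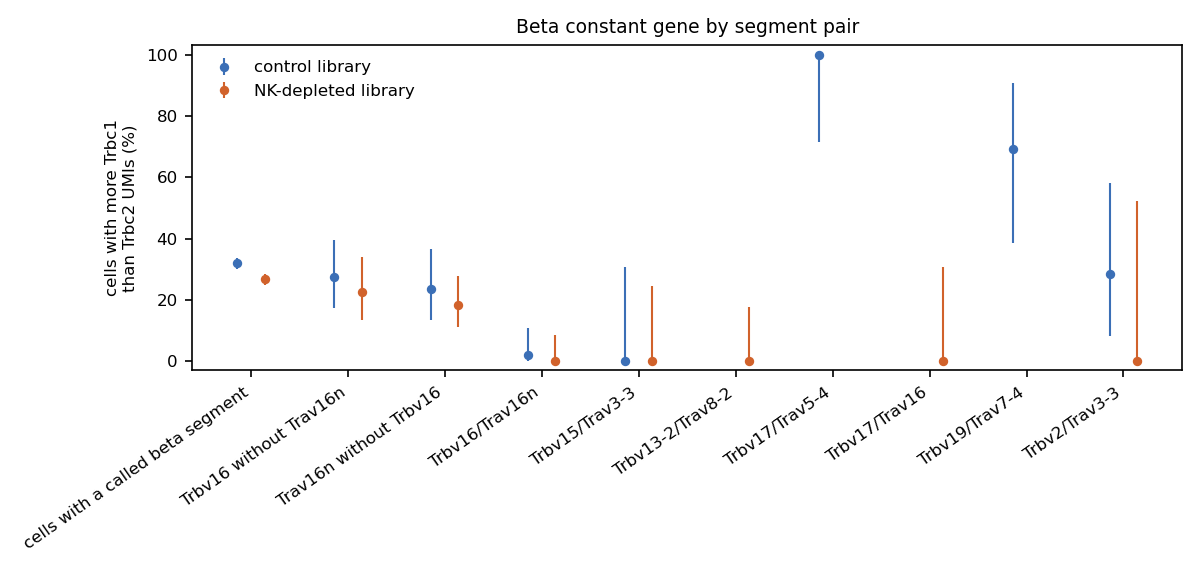
Share of cells with at least 10 Trbc UMIs that had more Trbc1 than Trbc2 UMIs (%). The sets are all cells with a called beta segment, Trbv16 and Trav16n outside their pair, and a selection of the named pairs. A pair is drawn for a library where it had at least 5 such cells, and other named pairs, mixed ones among them, are not drawn. Blue is the control and orange the NK-depleted library, and bars are exact 95% intervals. Trbv16 with Trav16n was at 1 of 49 and 0 of 41 cells, and Trbv17 with Trav5-4 at 11 of 11.

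Segment use was then compared between cells with and without a UMI of 4 genes that mark T cell states. Havcr2 encodes TIM-3, an inhibitory receptor of exhausted and effector T cells; Gzmk encodes granzyme K, a protease of effector memory cells; Tcf7 encodes TCF-1, a transcription factor of naive, memory and stem-like cells; and Mki67 marks dividing cells. Of all gated cells, 38.5% in the control and 47.5% in the NK-depleted library had a Havcr2 UMI, 48.0% and 23.2% a Gzmk UMI, 28.9% and 31.4% a Tcf7 UMI, and 33.7% and 45.5% a Mki67 UMI. In the non-T cells described above, which should lack Gzmk, 1 of 109 control cells (0.917%, 0.023 to 5.01) and 0 of 66 NK-depleted cells (exact upper bound 5.44%) had a Gzmk UMI, at median depths of 965 and 895 UMIs. Havcr2, which myeloid cells also express, was found in 8.26% (3.84 to 15.1) and 13.6% (6.43 to 24.3) of them. Those cells were too shallow to set the background at the depth of the gated cells. Because depth raises every such share, values after thinning to 5400 UMIs are given beside some of the contrasts. At that depth 28.2% and 34.6% of gated cells had Havcr2 and 33.0% and 13.1% Gzmk.

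Havcr2 divided the segments most. Among segments that led at least 100 cells, 16 in the control and 17 in the NK-depleted library, use was at least 1.5-fold higher in Havcr2-positive than Havcr2-negative cells for 4 in each library, and at least 1.5-fold lower for 7 in the control and 1 in the NK-depleted library. The ratio ranged from 0.19 to 2.69 in the control and from 0.53 to 2.19 in the NK-depleted library. After thinning, 14 of 16 and 16 of 17 segments kept their side of 1. Across the 14 segments compared in both libraries, 11 had the same side of 1 and the ratios had a Spearman rho of 0.81, points that share the cells of their library.

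Among segments that led at least 100 cells of a library, the minimum for every ranking in the paragraphs on these genes, Trbv26 had the largest share with Havcr2 in both libraries. It was 71.1% in the control (64.0 to 77.4) against 45.9% of other called cells, and 72.5% in the NK-depleted library (66.2 to 78.2) against 52.9%. Thinned, the values were 51.6% against 27.7% and 54.1% against 36.0%, and the ratio of use with over without Havcr2 was 2.56 (1.68 to 3.92) and 1.96 (1.32 to 2.90). Trbv13-1 stood at 65.2% of its cells in the control (60.004 to 70.1) and 64.9% in the NK-depleted library (58.6 to 70.8). Its thinned ratio was 2.04 (1.48 to 2.79) in the control and 1.19 (0.81 to 1.73) in the NK-depleted library, and the second of these intervals held 1. Trav5-4, at 65.4% of its NK-depleted cells (55.4 to 74.4), had a ratio of 1.60 (1.05 to 2.46) there, and thinned 1.65 (0.96 to 2.81).

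Trav16n and its near copy Trav16 lay on opposite sides. Of Trav16n cells, 66.9% in the control (60.6 to 72.9) and 66.3% in the NK-depleted library (61.1 to 71.2) had a Havcr2 UMI. Of Trav16 cells, 28.4% (20.9 to 36.8) and 38.6% (31.5 to 46.0) had one. Thinned, they were at 46.3% against 13.8% in the control and 44.6% against 23.9% in the NK-depleted library. Tcf7 ran the other way in the control, where 21.3% of Trav16n cells (16.3 to 27.1) and 40.3% of Trav16 cells (31.9 to 49.1) had a Tcf7 UMI, and the NK-depleted shares were 24.2% (19.8 to 28.9) and 37.0% (29.97 to 44.4). The counts of these segments, whose printed V exons differ at 4 positions, came from cells with different shares of both genes.

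At the same minimum, the lowest share with Havcr2 was that of Trbv29 in the control, 15.1% (10.0 to 21.4) against 49.9% of other called cells. The same cells had the highest share with Gzmk among control segments at that minimum, 66.3% (58.5 to 73.4) against 48.5%, and at 176 CPM against 76.5 CPM of other called cells, the level of Gzmk was higher too. Thinned, the ratio of use was 0.16 (0.06 to 0.35) for Havcr2 and 3.40 (2.22 to 5.27) for Gzmk. Trbv29 cells were shallow in the control, with a median of 9883 UMIs, and Tcf7 was found in 21.7% of them (15.7 to 28.7). In the NK-depleted library Trbv29 led 92 cells, under the minimum of 100, of which 38.0% had Havcr2 and 38.0% Gzmk, with thinned ratios of 0.38 (0.14 to 0.87) and 2.09 (0.90 to 4.43).

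In the control, Trbv12-1, Trbv3 and Trbv12-2 also had lower shares with Havcr2 and higher shares with Tcf7 than other called cells. Trbv12-1 had Havcr2 in 25.9% of its cells (18.9 to 33.9) and Tcf7 in 37.1% (29.1 to 45.5), and Trbv3 had them in 31% (24.5 to 38.2) and 39.0% (32.0 to 46.4). Trbv12-2 had Havcr2 in 34.6% of its control cells (27.8 to 41.8) and Tcf7 in 40.8% (33.8 to 48.2) against 27.9% of other called cells, with a ratio of 1.70 (1.26 to 2.29), thinned 2.13 (1.35 to 3.31). In the NK-depleted library Trbv12-2 was at 35.3% against 30.3%, a ratio of 1.23 (0.93 to 1.61), and Trbv15 had Havcr2 in 46.1% of its cells, a ratio of 0.71 (0.47 to 1.07). The largest Tcf7 share there was that of Trbv1, at 43.2% (34.4 to 52.4) against 30.2%, a ratio of 1.71 (1.18 to 2.47), thinned 1.87 (1.01 to 3.36). The lowest Tcf7 shares in both libraries were those of Trbv26, 16.8% and 21.8%, Trbv13-1, 18.9% and 23.4%, and Trav16n. Over the 14 shared segments, the Tcf7 ratios had a Spearman rho of 0.89 between the libraries, with 10 on the same side of 1. After thinning, 11 of 16 control and 14 of 17 NK-depleted segments kept their side of 1 for Tcf7.

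Gzmk was the state gene whose segments were least alike in the libraries, with a Spearman rho of 0.20 over the same 14 segments and 9 on the same side of 1. After thinning, 13 of 16 control and 15 of 17 NK-depleted segments kept their side of 1 for Gzmk. In the control Trbv19 cells had Gzmk in 64.8% (58.4 to 70.7) against 48.1% of other called cells, a ratio of 1.87 (1.43 to 2.46), and in the NK-depleted library in 28.3% (21.9 to 35.4) against 27.2%, a ratio of 1.05 (0.75 to 1.46). Trbv2 had the lowest Gzmk share of the control, 37.6% (31 to 44.5) against 50.6%, a ratio of 0.61 (0.46 to 0.82), and stood at 30.2% against 26.9% in the NK-depleted library. Trbv26 changed sides: 42.6% against 50.1% in the control, with a thinned ratio of 0.55 (0.32 to 0.90), and 40.2% against 26.1% in the NK-depleted library, with a thinned ratio of 2.07 (1.3 to 3.19). Trav5-4 had Gzmk in 42.3% of NK-depleted cells (32.7 to 52.4) against 27.8%, a ratio of 1.85 (1.23 to 2.78), thinned 1.68 (0.83 to 3.14). Trbv12-1 (ratio 1.37, 0.97 to 1.93), Trbv13-1 (0.73, 0.59 to 0.90) and Trbv13-2 (0.74, 0.51 to 1.08) lay within 1.5-fold in the control. The same held in the NK-depleted library for Trav16 (0.68, 0.46 to 0.97), Trbv13-1 (0.78, 0.57 to 1.05), Trbv20 (0.80, 0.52 to 1.20) and Trav16n (1.37, 1.09 to 1.71).

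For Mki67, in the control no segment was at least 1.5-fold higher and 2 were lower, and in the NK-depleted library 1 was higher and 2 lower. After thinning, 14 of 16 control and 13 of 17 NK-depleted segments kept their side of 1. The ratios below are at full depth, where Trav16n cells had medians of 17591 and 17718.5 UMIs and Trav16 cells 11748 and 13664.5 UMIs. Trav16n had the highest share in both, 49.4% of control cells (42.9 to 55.9) and 64.0% of NK-depleted cells (58.8 to 69.0), with ratios of 1.45 (1.12 to 1.89) and 1.65 (1.32 to 2.06). Trbv13-1 was next, with ratios of 1.39 (1.12 to 1.72) and 1.45 (1.12 to 1.89), followed in the control by Trbv15 at 1.38 (0.93 to 2.04) and in the NK-depleted library by Trbv2 at 1.31 (1.05 to 1.64). The lowest were Trbv12-2 at 0.64 (0.46 to 0.87) and 0.67 (0.51 to 0.87), Trav16 at 0.66 (0.44 to 0.96) and 0.59 (0.44 to 0.81), Trbv12-1 in the control at 0.67 (0.46 to 0.96) and Trbv3 in the NK-depleted library at 0.60 (0.43 to 0.82).

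**Figure D5:**
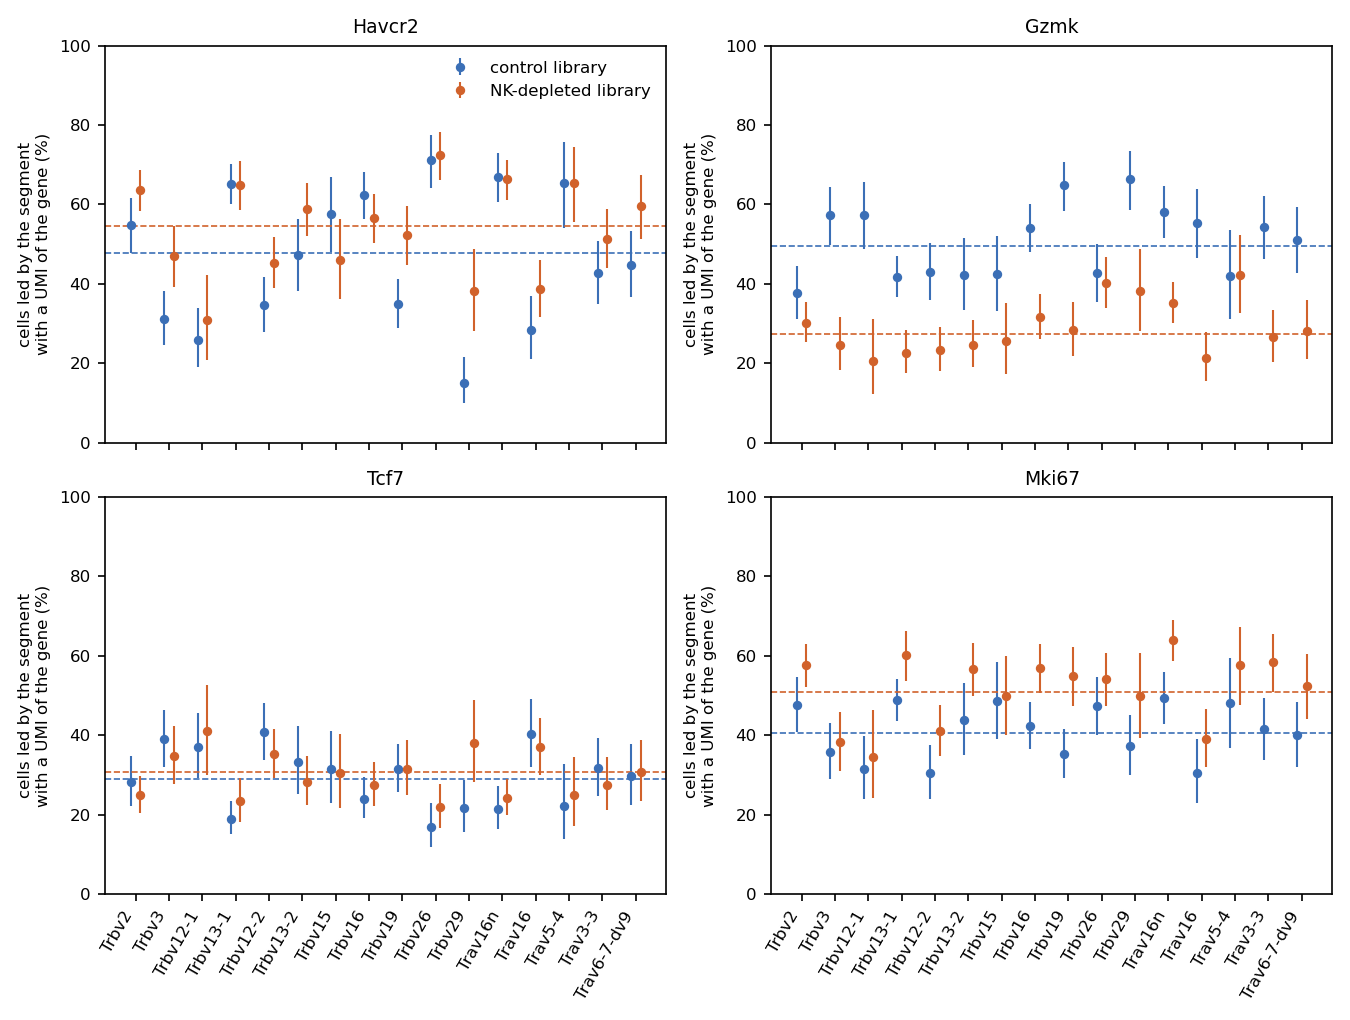
Share of the cells led by a segment that had a UMI of Havcr2, Gzmk, Tcf7 or Mki67 (%), for 16 of the segments that led at least 50 cells of a library; blue is the control and orange the NK-depleted library, bars are exact 95% intervals and dashed lines the share of all cells with a called beta segment. Trbv26 and Trav16n lie above the lines for Havcr2 in both libraries, and Trav16 and Trbv12-2 below them.

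Cells with the leading pair were more often Havcr2-positive than other paired cells in both libraries. Of the cells with Trbv16 and Trav16n, 43 of 50 in the control (86.0%, 73.3 to 94.2) and 36 of 42 in the NK-depleted library (85.7%, 71.5 to 94.6) had a Havcr2 UMI, against 55.1% and 59.5% of other paired cells. Thinned, the shares were 63.3% (48.3 to 76.6) against 37.8% and 61.9% (45.6 to 76.4) against 39.1%. Cells with Trbv16 and another alpha segment were at 58.6% and 47.9% at full depth. Those with Trav16n and another beta segment were at 61.7% (48.2 to 73.9) and 67.0% (56.6 to 76.4). In both libraries the interval of the Trav16n cells overlapped that of the pair. Tcf7 was found in 16% (7.17 to 29.1) and 16.7% (6.97 to 31.4) of the cells of the pair, against 30.6% and 29.3% of other paired cells. The NK-depleted interval held the share of the other cells. Thinned, the Tcf7 shares were 6.12% (1.28 to 16.9) against 18.7% in the control and 9.52% (2.66 to 22.6) against 15.6% in the NK-depleted library. The cells of the pair were deep, with medians of 23792.5 and 19933.5 UMIs. Of the 19 NK-depleted cells with Trbv13-2 and Trav8-2, 18 had Havcr2 (94.7%, 74.0 to 99.9). Thinned, 16 of 19 had Havcr2 (84.2%, 60.4 to 96.6) against 39.2% of other paired cells. At full depth 14 of the 19 had Mki67 (73.7%, 48.8 to 90.9), an interval that held the 56.1% of other paired cells. Tcf7 was found in 1 of the 19 (5.26%, 0.13 to 26.0), against 29.3% of other paired cells.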

How the data were processed

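The authors deposited raw UMI counts, a whole number for each gene and barcode, of 2 libraries. The submitters' processing notes name Cell Ranger 6.1.2, which the matrix headers also give, the mm10 build and Seurat 4.0.6. The libraries hold 7866 control and 10111 NK-depleted barcodes, and the gated cells sum to 106462391 and 125332343 UMIs. Leading segments, shares with exact Clopper-Pearson intervals, ratios with exact conditional binomial intervals and pair counts with exact Poisson intervals were computed in Python 3.11.15 with numpy 2.4.6, scipy 1.17.1 and pandas 2.3.3. Doublets were not called. The values of 1 reference population are not reported here. Scripts were tested on simulated data. V exons were read from GENCODE M21 transcripts. The V segments named are the 10 most used and the 5 with the largest and smallest ratios per chain, the 10 most frequent pairs of each library, and the 3 with the largest and smallest ratios per state gene. The members, lists and minimums were chosen with earlier results of these data known. Alternatives covered the UMIs needed for a call, family joining, thinning, cell filters and scaling, with TMM factors from edgeR 4.0.16.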

Additional observations from a re-analysis of the deposited data

How the results depend on the processing

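No paired analysis was possible because each group is 1 library and the labels give no replicate numbers. Thresholds of 50 cells for usage, 100 cells for states and 5 cells for pairs remove most segments once fewer cells are called, which lowers the counts by construction. With at least 2 UMIs for a call, beta calls fell to 857 in the control and 788 in the NK-depleted library, 3 beta and 0 alpha segments passed 1.5-fold (8 and 8 in the report), and 2 and 1 pairs were at 2 times the product (27 and 27 in the report). The effective number of segments was then 8.95 for beta and 14.6 for alpha in the NK-depleted library, that of pairs 83.1 in the control and 79.1 in the NK-depleted library, and the 10 leading pairs held 29.4% and 30.3%. State contrasts past 1.5-fold numbered 5 and 5 (22 and 12 in the report). With at least 3 UMIs and 80% of the UMIs of the chain, 0 beta and 1 alpha segments passed, the effective numbers were 6.66 and 4.04 for beta, 14.3 and 9.45 for alpha and 52.5 and 28 for pairs, the 10 leading pairs held 80% and 100%, and 0 and 0 pairs and 0 and 0 state contrasts passed. With alpha symbols joined into families, 1 alpha family passed, the effective numbers were 10.8 and 9.93 for alpha and 100.5 and 107 for pairs, 16 and 11 pairs were at 2 times the product, and 2 alpha families passed by level. Thinned to 5400 UMIs, 5 beta and 1 alpha segments passed, 1 and 3 pairs were at 2 times the product, and 10 state contrasts of the control passed.

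By level, 0 members passed 1.5-fold at the planned minimum of 10 CPM. With no minimum 11 beta and 51 alpha segments passed, and at 100 UMIs, a minimum chosen after seeing the data, 6 and 7. With a fold of 2 at that minimum 2 beta segments passed. The alpha segments past that fold were Trav8-2, Trav16d-dv11, Trav4-3 and Trav12-2, which were higher, and Trav13d-1, which was lower. Scaling by TMM, by the median of ratios or per V UMI of the chain, and averaging over cells, kept the counts within 1.5 times.

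Turns to the other side of 1 were counted only for single values at least 1.5-fold from 1, and there were 5. Weaker ratios that crossed 1 were not counted, such as that of Trbv26 use, 1.15 in the report and 0.977 at 2 UMIs. The Mki67 ratio of Trbv3 in the NK-depleted library was 1.104 at 2 UMIs and 1.36 at the stricter call, and the Tcf7 ratio of Trbv3 in the control 0.565 at the stricter call. Thinned, the ratio to the product was 0.613 for Trbv12-2 with Trav6-7-dv9 in the NK-depleted library and 0.821 for Trbv13-2 with Trav16n in the control. The cause was not tested. Of the other single values, 66 moved out of the interval of the value in the report. The remaining 639 stayed inside it, and some of these crossed 1. None of the 98 single values moved with a mitochondrial share under 5%, without barcodes present in both libraries, without cells with Trdc, Cd4 or 3 non-T markers, or without cells with another Trbv segment of 2 UMIs.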

Other observations

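Some alpha segments led fewer than 50 cells in each library and so fell outside the comparison of usage; those given here were chosen after their values were seen. Trav7d-3 led 43 control cells (1.91%) and 8 NK-depleted cells (0.295%), a ratio of 0.15 (0.06 to 0.33). Trav21-dv12 led 43 and 18 cells, a ratio of 0.35 (0.19 to 0.62); of its 20 paired control cells, 10 had Trbv16. Trav12-1 led 36 and 15 cells, a ratio of 0.35 (0.18 to 0.65), and Trav7-3 led 9 and 38 cells, a ratio of 3.51 (1.67 to 8.25). These ratios were as far from 1 as those of the more frequent alpha segments, and each rested on few cells.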
